A study of Rattus norvegicus with 13 samples.

Results

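The neurogenic cascade is the series of transcription factors through which a progenitor of the telencephalon becomes a neuron. It was examined here through 9 genes chosen by name: Neurog1 and Neurog2 (proneural factors), Insm1 and Eomes (intermediate progenitors), and Neurod1, Neurod2, Neurod6, Tbr1 and Bcl11b (neurons). Each name is carried by 1 of the 14716 rows of the deposited table, and all 9 were among the 14606 rows that had a mean of at least 10 normalized counts over all pups and were tested. A normalized count is a transcript's estimated read count divided by a size factor of its pup.

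RNA was sequenced from the posterior ventricular zone (VZ), the epithelium that lines the ventricle and houses neural progenitors, which was cut out by laser on postnatal day 2 (PN2) from male Long Evans rats. The 7 control pups were euthyroid offspring of dams that drank deionized water. The 6 PTU exposed pups were hypothyroid offspring of dams given 3 ppm propylthiouracil (PTU), which blocks thyroid hormone synthesis, in the drinking water from gestational day 6. Each pup came from a different litter, and the comparison addresses the effect of developmental hypothyroidism on the progenitor layer. According to the study's methods the region was recognized by its shape, and its RNA was partly degraded.

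In the developing cortex, radial glia of the VZ switch on Neurog1 and Neurog2, basic helix-loop-helix proteins that pair with E proteins and bind the E-box, while Notch signaling holds the progenitor state through Hes repressors. Cells that leave this state become intermediate progenitors, which express Insm1 and the T-box factor Eomes (also called Tbr2), and these give rise to glutamatergic neurons. The neurons then switch on Neurod1, Neurod2 and Neurod6 and the layer factors Tbr1 (corticothalamic neurons) and Bcl11b (also called Ctip2, subcortical projection neurons and also striatal neurons).

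The sequences before the start sites are shown for Eomes, which had the smallest p of the 9 genes, and for Neurod1, Neurod2, Neurod6 and Tbr1, which formed the positively correlated pairs of factors described further on. They are the 250 bases before each RefSeq start on build GRCr8, 5′ to 3′ on the strand of the gene, and RefSeq promoters were at hand for 7 of the 9 genes. The windows are chr8:127058965-127059214 (plus strand) for Eomes, chr3:84770455-84770704 (minus strand) for Neurod1, chr10:83824278-83824527 (minus strand) for Neurod2, chr4:86180156-86180405 (minus strand) for Neurod6 and chr3:66759553-66759802 (plus strand) for Tbr1. Capitals mark every E-box, CANNTG, which reads the same on both strands.
Eomes: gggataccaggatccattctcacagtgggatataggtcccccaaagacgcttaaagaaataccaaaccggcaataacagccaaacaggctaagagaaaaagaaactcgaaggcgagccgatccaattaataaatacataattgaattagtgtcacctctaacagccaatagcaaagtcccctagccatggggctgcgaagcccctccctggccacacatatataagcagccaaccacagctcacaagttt
Neurod1: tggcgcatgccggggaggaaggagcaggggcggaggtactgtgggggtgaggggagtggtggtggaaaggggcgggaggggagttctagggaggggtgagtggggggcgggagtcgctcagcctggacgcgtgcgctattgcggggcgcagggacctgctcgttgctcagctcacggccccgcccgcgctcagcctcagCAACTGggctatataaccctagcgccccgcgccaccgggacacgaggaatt
Neurod2: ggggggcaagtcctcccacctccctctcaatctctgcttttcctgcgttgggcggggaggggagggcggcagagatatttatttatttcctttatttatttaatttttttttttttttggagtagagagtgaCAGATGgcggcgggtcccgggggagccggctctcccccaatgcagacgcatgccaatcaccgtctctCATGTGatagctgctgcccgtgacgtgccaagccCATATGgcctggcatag
Neurod6: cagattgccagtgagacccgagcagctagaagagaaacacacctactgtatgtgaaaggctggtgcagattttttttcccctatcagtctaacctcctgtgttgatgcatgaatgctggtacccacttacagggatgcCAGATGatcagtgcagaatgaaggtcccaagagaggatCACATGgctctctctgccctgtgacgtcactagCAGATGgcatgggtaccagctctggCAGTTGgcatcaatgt
Tbr1: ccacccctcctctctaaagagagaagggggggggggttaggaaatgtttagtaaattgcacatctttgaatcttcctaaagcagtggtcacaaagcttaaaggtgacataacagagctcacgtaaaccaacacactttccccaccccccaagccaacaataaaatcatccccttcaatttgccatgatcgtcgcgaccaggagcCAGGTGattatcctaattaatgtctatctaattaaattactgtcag
The Neurod6 window held 4 E-boxes, and 3.2% of all 33469 promoter windows of this length held 4 or more. The Neurod2 window held 3 E-boxes, and the Neurod1 and Tbr1 windows held 1 each. At least 1 E-box was present in 65.5% of all windows. The form CAGATG, which proneural and NeuroD proteins are known to bind, was present 2 times before Neurod6 and 1 time before Neurod2, and in 14.0% of all windows. The E-box of Tbr1 had the form CAGGTG, which, read on both strands, 15.9% of windows held. The windows of Eomes, Neurog1 and Neurog2 held no E-box. The Eomes and Neurod2 windows held 2 CCAAT boxes each and the Neurog1 window 1, counted on both strands, an element that 34.0% of windows held at least once. These matches describe the sequence only, and binding was not examined.

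Each pup rested on an estimated 22.3 to 44.4 M reads (M, mega), and 3 rows without a gene name held 32.4 to 60.1% of the total in controls (median 50.9%) and 23.9 to 57.0% in PTU exposed pups (median 35.8%). The part of this share in the differences between the groups was not tested. Radial glia markers, which define the labelled tissue, had a summed level of 113662 to 153358 normalized counts in controls and 93285 to 123472 in PTU exposed pups. Transcripts of the choroid plexus, a neighboring epithelium, had a summed level of 50283 to 142335 and 23498 to 100788. PTU pup 1 stood apart by a high pan-neuronal level and PTU pup 6 by a high level of Bcl11b, and the plot of fold changes shows the 9 factors also without PTU pup 1 and without both pups. In dissected tissue, fewer cells of a type and less RNA per cell cannot be told apart.

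Eomes, the proneural factors and Tbr1 had lower mean levels in PTU exposed pups and Bcl11b a higher one, while Insm1 and the 3 Neurod factors had log2 fold changes between -0.12 and 0.00 over all pups. Of the 9 genes, 7 were lower and 2 higher, with a median log2 fold change of -0.12, where the median over all tested rows was 0.00 and 49.3% of them were lower. The median of the 9 was -0.34 without PTU pup 1, -0.37 without PTU pups 1 and 6, and as near to 0 as -0.05 with 1 pup left out (Control pup 4). None of the 9 had an adjusted p of at most 0.05 in the main limma fit, which called 0.0% of the 14606 rows. This fit used all pups with equal weights, the deposited scaling and no block. Without PTU pup 2, 179 rows were called, without Control pup 6, 7 rows, and with pups weighted by quality, 40 rows, none of them one of the 9. With the replicate number as a block, 18 rows were called, among them Eomes (limma adjusted p = 0.0475), though the labels state no pairing by number. An unadjusted p under 0.05 was found for Eomes in the lower direction (8.2% of all rows) and for Bcl11b in the higher direction (8.11% of all rows). For each of the 9 genes the ranges of the groups overlapped, and 0.596% of all rows had ranges that did not. Scaling every pup to the same total shifted the median of all rows by 0.20 and left 4 of the 9 genes lower, and relative to this shift 7 of the 9 genes lay below the median row. Such a scaling moves all rows of a pup alike. Values relative to the median row, here and below, therefore repeat the main fit by construction and are no separate support.

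**Figure D1:**
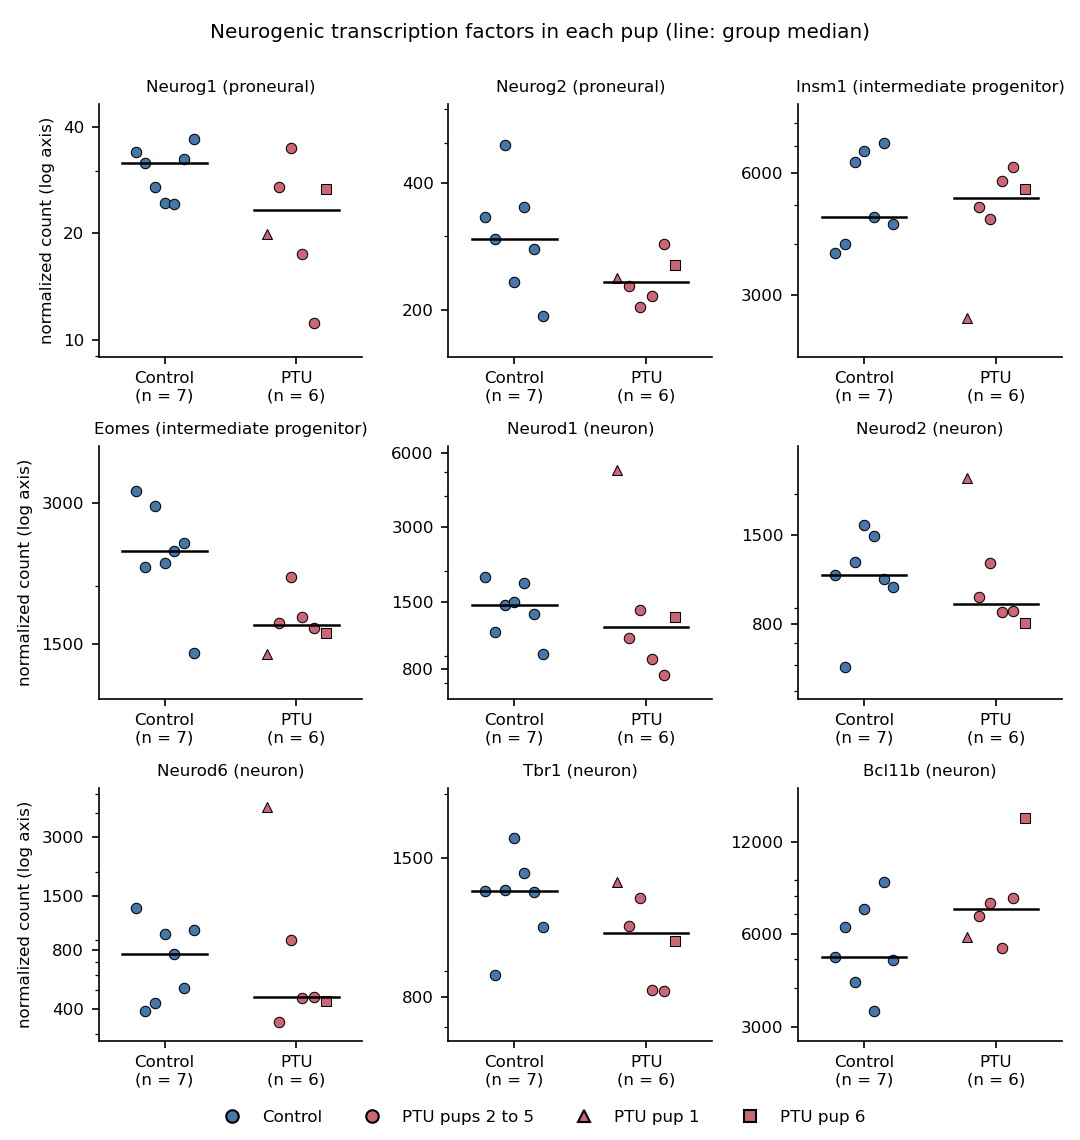
Normalized counts (log axis) of the 9 transcription factors in each of 7 control and 6 PTU exposed pups, with triangles for PTU pup 1, squares for PTU pup 6 and lines for group medians. For Eomes, 6 of 7 control pups lie above all PTU exposed pups, while PTU pup 1 is far above the rest for Neurod1, Neurod2 and Neurod6, and PTU pup 6 for Bcl11b.

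Neurog2, the main proneural factor of the dorsal telencephalon, was at 194 to 494 normalized counts in controls (median 295) and at 204 to 287 in PTU exposed pups (median 233). All 6 PTU exposed pups were below the control mean, and 4 of 7 controls were above every PTU exposed pup. The log2 fold change was -0.34 (SE 0.18, limma adjusted p = 0.371), with an unadjusted p of 0.101 under exact permutation of the group labels (two-sided). Neurog1, its close relative, was a low transcript with 24.1 to 37.1 normalized counts in controls (median 31.6) and 11.2 to 34.9 after PTU exposure (median 23.2). Its values rested on an estimated 11 to 44 reads per pup. The log2 fold change of Neurog1 was -0.45 (SE 0.31, limma adjusted p = 0.488), and 5 of 6 PTU exposed pups were below the control mean. It was -0.27 without PTU pup 5, while that of Neurog2 was -0.22 without Control pup 3. With the same total for every pup Neurog2 was at -0.14 and Neurog1 at -0.25, or -0.34 and -0.46 relative to the median row. The spread of Neurog2 was narrower among PTU exposed pups (SD 29.9) than among controls (SD 97.1), a difference that was not tested.

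Insm1 encodes a zinc finger protein that promotes the production of intermediate progenitors. It was at 3795 to 7112 normalized counts in controls (median 4662) and at 2631 to 6215 in PTU exposed pups (median 5221), and the lowest value belonged to PTU pup 1. Of the controls 3 were above every PTU exposed pup, and PTU pup 1 was the only pup below every control. The log2 fold change of -0.12 (SE 0.19, 95% interval -0.52 to 0.29, limma adjusted p = 0.797) changed sign to 0.06 without this pup, and with the same total for every pup it was 0.09, or -0.12 relative to the median row.

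Eomes, the defining factor of intermediate progenitors, had the smallest p of the 9 genes. Its level was 1430 to 3184 normalized counts in controls (median 2367) and 1428 to 2085 in PTU exposed pups (median 1643). All 6 PTU exposed pups were below the control mean, and 6 of 7 controls were above every PTU exposed pup. Control pup 7, at 1430, was the exception, and it also had the lowest Neurog2 and Neurod1 levels of the controls. The PTU level was 0.713 times the control level (95% interval 0.576 to 0.884), which is a log2 fold change of -0.49 (SE 0.15). Its unadjusted p was 0.00393 in limma, at rank 383 of the 14606 rows, and its adjusted p was 0.15. Exact permutation of the group labels (two-sided) returned an unadjusted p of 0.0186. Without PTU pups 1 and 6 the log2 fold change was -0.41 (SE 0.16, limma adjusted p = 0.421), and with the same total for every pup it was -0.29 (adjusted p = 0.576), which is -0.49 relative to the median row under that scaling.

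Neurod1, which drives early neuronal differentiation, was at 922 to 1886 normalized counts in controls (median 1446). In PTU exposed pups it was at 756 to 1384 in 5 pups and at 5106 in PTU pup 1. That pup lay above every control, while the other 5 were all below the control median. Over all pups the log2 fold change was -0.03 (SE 0.33, limma adjusted p = 0.972). Without PTU pup 1, which was singled out for its high level, it was -0.41 (SE 0.18, limma adjusted p = 0.308). Without PTU pup 5 it was 0.14.

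Neurod6, a marker of maturing pyramidal neurons, had the same pup far above the rest. It was at 395 to 1312 normalized counts in controls (median 763), at 346 to 901 in 5 PTU exposed pups and at 4253 in PTU pup 1, which was 9.25 times the median of the other PTU exposed pups. Over all pups the difference on the log2 scale was 0.00 (SE 0.47, 95% interval -0.98 to 0.99, limma adjusted p = 0.997). Without PTU pup 1 it was -0.51 (SE 0.29, adjusted p = 0.418), and without PTU pup 2 it was 0.21.

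Neurod2, which acts in neuronal maturation and connectivity, was at 592 to 1608 normalized counts in controls (median 1134), at 809 to 1235 in 5 PTU exposed pups and at 2238 in PTU pup 1. The log2 fold change was -0.05 (SE 0.23, limma adjusted p = 0.938), -0.26 without PTU pup 1 and 0.04 without Control pup 4. Tbr1 had 883 to 1640 normalized counts in controls (median 1289) and 821 to 1347 after PTU exposure (median 1068), so that the groups overlapped over most of their range. Its log2 fold change was -0.26 (SE 0.14, limma adjusted p = 0.377), and without PTU pup 1 it was -0.33 (unadjusted p = 0.0317, adjusted p = 0.305). With the same total for every pup Tbr1 was at -0.06, or -0.26 relative to the median row. PTU pup 1 was the highest PTU exposed pup for Tbr1 too, but at 1.31 times the median of the others.

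Bcl11b was higher in PTU exposed pups. It was at 3373 to 8905 normalized counts in controls (median 5051) and at 5429 to 14355 in PTU exposed pups (median 7231), and none of the PTU exposed pups was below the control median. The log2 fold change was 0.47 (SE 0.22, 95% interval 0.00 to 0.94, limma adjusted p = 0.306), with an unadjusted p of 0.0497 in limma and 0.108 in the exact permutation test (two-sided). PTU pup 6 held the highest value, 2.08 times the median of the other PTU exposed pups, and without it the log2 fold change was 0.29. Foxp1 and Foxp2, transcription factors of cortical and striatal neurons, were highest in the same pup, at 2193 and 2953 normalized counts. The controls were at 244 to 741 for Foxp1 and at 484 to 1295 for Foxp2. Foxp1 had a log2 fold change of 0.76 (limma adjusted p = 0.275) and Foxp2 of 0.51 (adjusted p = 0.435). Without PTU pup 6 these were 0.46 and 0.27, and Foxp2 was at 0.79 without PTU pup 1.

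**Figure D2:**
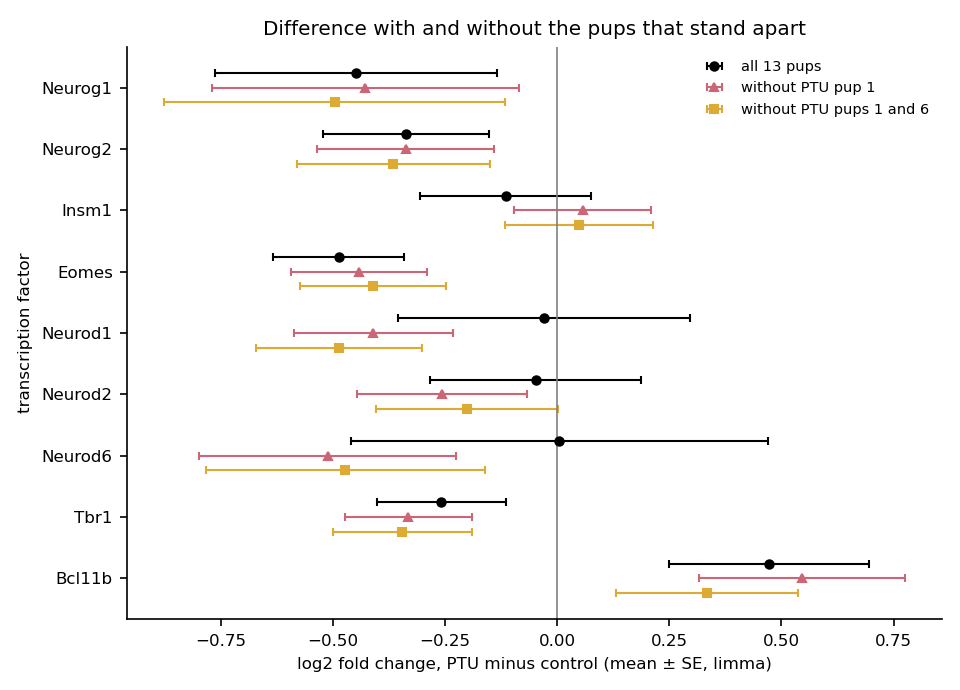
Log2 fold change (PTU minus control, with standard error) of each transcription factor from limma with all 13 pups, without PTU pup 1, and without PTU pups 1 and 6. Neurod1 and Neurod6 move from -0.03 and 0.00 to -0.41 and -0.51 when PTU pup 1 is left out, Insm1 crosses 0, and Eomes stays between -0.49 and -0.41. PTU pup 1 was singled out for its high Neurod levels, so their fall without it follows from the choice.

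PTU pup 1 carried its high Neurod levels together with other neuronal transcripts. Its summed level of 15 pan-neuronal genes was 157328 normalized counts, whereas the other PTU exposed pups reached at most 124940 and the controls 95554. Bhlhe22, a basic helix-loop-helix factor of cortical and hippocampal neurons, was at 4468 in this pup and at 379 to 1096 in controls. Reln, which is made by Cajal-Retzius cells, was at 7593, with 1038 to 2274 in controls. Both genes were named after their values were seen. PTU pup 1 held the lowest PTU levels of Insm1, Eomes and Pax6 and of the summed GABAergic lineage, which was 24790 normalized counts against 42227 or more in the other PTU exposed pups. The part of neuronal content in the Neurod levels was not tested.

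The balance of successive factors within a pup was compared through 6 log2 ratios of normalized counts. Bcl11b over Tbr1 was at 2.12 to 3.80 in PTU exposed pups (median 2.68) and at 1.27 to 2.84 in controls (median 2.14). The difference was 0.73, with 5 of 6 PTU exposed pups above the control mean (p from the two-sided exact permutation test = 0.0431, adjusted p = 0.259 over the 6 ratios). Neurod1 over Eomes was 1.84 in PTU pup 1 and -1.10 to -0.29 in the other PTU exposed pups, where controls were at -1.04 to -0.41. Its difference of 0.46 (p from the two-sided exact permutation test = 0.332) was 0.03 without this pup.

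Eomes over Neurog2 differed by -0.15 and Tbr1 over Eomes by 0.23 (p from the two-sided exact permutation test = 0.351 and 0.287). With 1 pup left out the first ran from -0.26 (without PTU pup 3) to -0.09 (without PTU pup 5), and without PTU pup 1 the second was 0.11. Neurod2 over Neurod1 and Neurod6 over Neurod2 differed by -0.02 and 0.05, with p = 0.943 and 0.895 in the same exact test. Both changed sign without PTU pup 1, to 0.15 and -0.26. None of the 6 ratios had an adjusted p of at most 0.05.

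**Figure D3:**
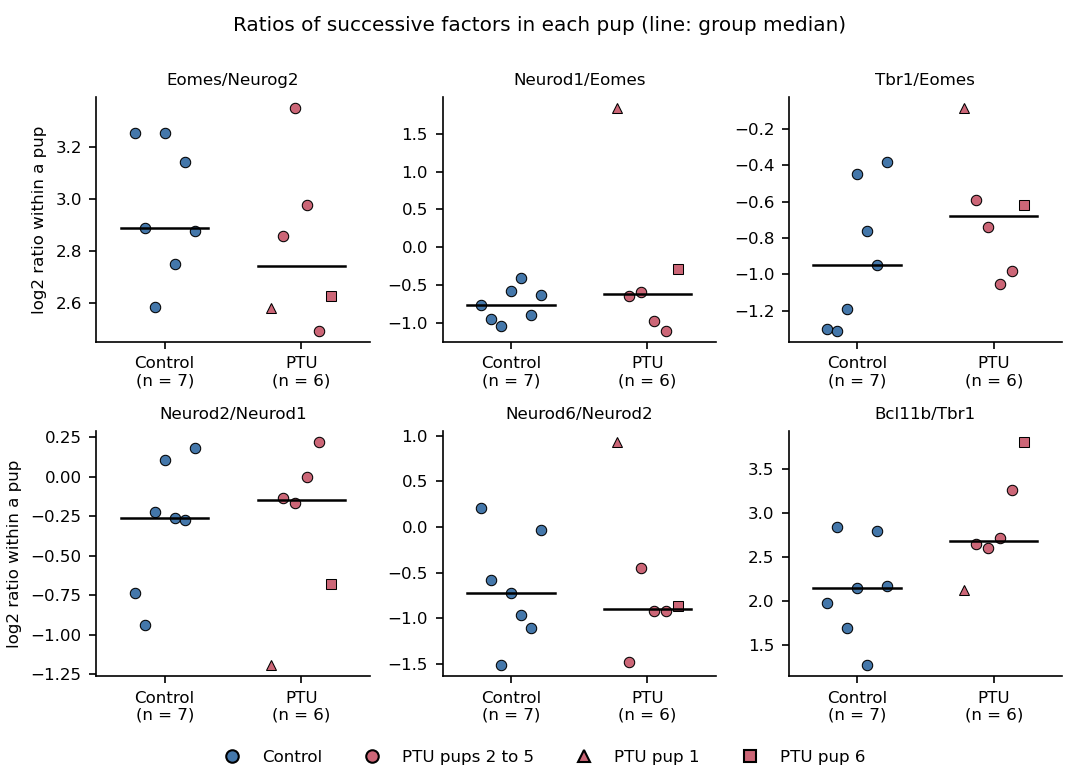
Log2 ratio of the normalized counts of successive factors within each pup, for 7 control and 6 PTU exposed pups (triangle, PTU pup 1; square, PTU pup 6; line, group median). Bcl11b over Tbr1 exceeds the control mean in all PTU exposed pups but PTU pup 1, and Neurod1 over Eomes is set apart by PTU pup 1 at 1.84.

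Across pups, after each group's mean was subtracted, Neurod2 varied closely with Tbr1. All 36 pairs of the 9 genes were computed over 13 pups. By Pearson's r, 6 pairs had an adjusted p of at most 0.05 (permutation test, adjusted over 36 pairs), and 2 of them also by Spearman's rho. The share of pairs among all rows with such an r was not computed, so this count is not read as particular to the 9 genes. Neurod2 and Tbr1 had r = 0.87 (adjusted permutation p = 0.0036) and rho = 0.89 (adjusted permutation p = 0.00576). Their r was 0.80 without the 2 pups farthest from the median of Neurod2 and 0.87 without PTU pup 1.

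Neurod1 and Tbr1 had r = 0.69 (adjusted permutation p = 0.04) and rho = 0.75 (adjusted permutation p = 0.0572), and r was 0.69 without the 2 farthest pups. Without PTU pup 1 its r was 0.73 (adjusted permutation p = 0.0995), and Neurod2 with Tbr1 was then the only pair with an adjusted p of at most 0.05. In the other pairs with an adjusted p of at most 0.05 over all pups, r was smaller in size without that pup. For Neurod1 and Neurod2, r was 0.77 (rho = 0.79) and 0.50 without this pup. For Neurod1 and Neurod6, r was 0.82 (rho = 0.54) and 0.34 without it. For Neurod2 and Neurod6, r was 0.78 (rho = 0.67) and 0.54 without it. Insm1 and Neurod6 had r = -0.70 (rho = -0.36), which was -0.32 without PTU pup 1. The adjusted permutation p of these 4 values of r, over 13 pups, lay between 0.032 and 0.0432.

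No relation of Eomes with a neuronal factor passed the test over all 13 pups, with r from -0.18 to 0.21 and unadjusted permutation p from 0.494 to 0.927. Without PTU pup 1, r of Eomes and Neurod1 was 0.69 (unadjusted permutation p = 0.00829), and with that pup kept but Control pups 1 and 7 left out, the 2 farthest from the median of Eomes, it was -0.31. Neurog2 and Eomes had r = 0.61 (adjusted permutation p = 0.145) and rho = 0.30, and r was 0.01 without Control pups 3 and 7.

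Among all other named rows, the 6 whose values followed the mean of the 9 scaled factors most closely over 13 pups were Tcf25 (r = 0.90), RGD1559441 (r = 0.88), Rrs1 (r = 0.86), Ahi1 (r = 0.85), Vps26b (r = 0.85) and Gpank1 (r = 0.84). They were picked as the highest of all rows, so these r describe the choice.

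**Figure D4:**
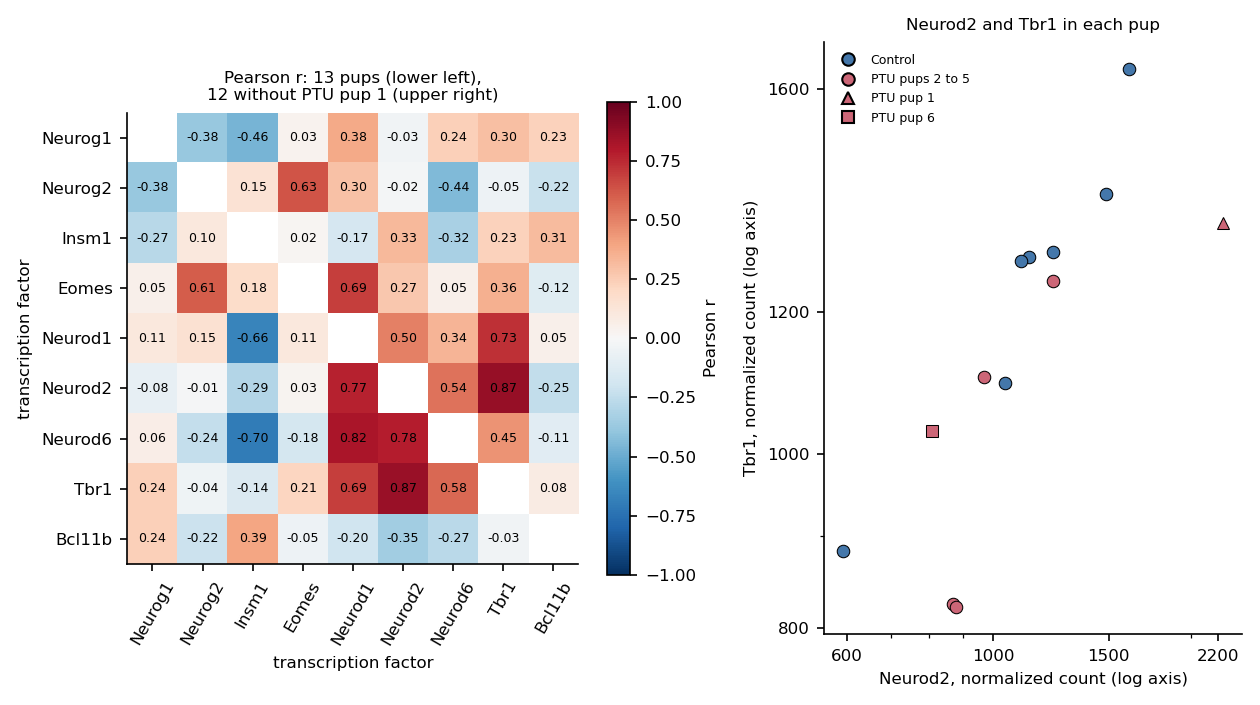
Left, Pearson's r of each pair of factors over 13 pups (lower left) and over 12 pups without PTU pup 1 (upper right), from log2 values with group means removed. Right, normalized counts of Neurod2 and Tbr1 in each pup on log axes, a pair whose r is 0.87 in both sets of pups.

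Around the 9 factors, genes of radial glia were lower and genes of finished neurons higher in PTU exposed pups. None of them had an adjusted p of at most 0.05 in the main limma fit. All 11 tested radial glia genes were lower, with a median log2 fold change of -0.29, and 7 had an unadjusted p under 0.05, which 8.2% of all rows had in this direction. Emx2, which patterns the caudal and medial cortex, was at 1605 to 2579 normalized counts in controls and 1231 to 1932 in PTU exposed pups (log2 fold change -0.59, limma adjusted p = 0.122). Lhx2, a selector gene of the cortex, and Pax6, which activates Neurog2, had log2 fold changes of -0.39 and -0.44 (limma adjusted p = 0.122 and 0.15). Hopx, a gene of outer radial glia and of neural stem cells, had one of -0.62 (adjusted p = 0.15). All 6 PTU exposed pups were below the control mean for each of these 4 genes. They were named because they had the smallest unadjusted p of the list, so this follows in part from the choice. Genes named from the lists that follow were chosen in the same way. Emx2 was called without PTU pup 2 (limma adjusted p = 0.0252), with pups weighted by quality and with the replicate number as a block. Lhx2 was called with the quality weights (limma adjusted p = 0.0413). With the same total for every pup, 9 of the 11 genes were lower and the median was -0.09, or -0.29 relative to the median row.

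The repressors that hold proneural factors in check were lower as well. All 9 had negative log2 fold changes, with a median of -0.28, and 4 had an unadjusted p under 0.05 (8.2% of all rows in this direction). Hes1, the Notch effector that represses Neurog2, was at 243 to 414 normalized counts in controls and 176 to 324 in PTU exposed pups (log2 fold change -0.58, limma adjusted p = 0.143), and without PTU pup 2 it was called (log2 fold change -0.67, limma adjusted p = 0.0499). Hes5, a related Notch effector, was at 200 to 338 and 105 to 216 (log2 fold change -0.57, adjusted p = 0.171). Rest, a repressor of neuronal genes, and Hey2, a further Notch effector, had log2 fold changes of -0.28 and -0.38 (limma adjusted p = 0.251 and 0.29). With the same total for every pup, 6 of the 9 were lower and their median was -0.08, or -0.28 relative to the median row.

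Among the E proteins, with which proneural factors form dimers, Tcf3 had a log2 fold change of -0.35 (limma adjusted p = 0.294), which was -0.22 without PTU pup 1. Tcf4 and Tcf12 had log2 fold changes of 0.11 and -0.03, and the last was 0.03 without PTU pup 1 and 0.17 with the same total for every pup, or -0.04 relative to the median row.

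Of 15 targets of proneural factors and genes of basal progenitors, 12 were lower and 3 higher, with a median log2 fold change of -0.15 that was -0.09 without Control pup 6. With the same total it was 0.05, while relative to the median row it was -0.15 with 12 below and 3 above. Without PTU pups 1 and 6, 9 of the 15 were lower. Dll1, a Notch ligand that Neurog2 activates, was among the 3, at 432 to 624 normalized counts in controls and 584 to 769 in PTU exposed pups. All 6 PTU exposed pups were above its control mean (log2 fold change 0.28, limma adjusted p = 0.218). Hes6, which promotes neurogenesis, lay under its control mean in 6 of 6 PTU exposed pups (log2 fold change -0.38, adjusted p = 0.23). Rnd2, which acts in neuronal migration downstream of Neurog2, was at -0.18 on the log2 scale (limma adjusted p = 0.363) and Gadd45g at -0.30 (limma adjusted p = 0.397), or -0.13 without PTU pup 1.

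Among 18 factors of projection neurons, 10 were higher and 8 lower, with a median log2 fold change of 0.03 that ran from -0.04 to 0.10 with 1 pup left out (PTU pups 3 and 4). Fezf2, which specifies subcortical projection neurons upstream of Bcl11b, had a log2 fold change of -0.34 (limma adjusted p = 0.318), opposite in sign to Bcl11b. Myt1l, which keeps neuronal identity, had one of 0.28 (adjusted p = 0.43), or 0.17 without PTU pup 1. The count was 9 higher and 9 lower without PTU pup 1, and 16 higher and 2 lower with the same total for every pup, where 10 were above and 8 below the median row.

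All 15 pan-neuronal genes were higher in PTU exposed pups, with a median log2 fold change of 0.45, and 8 had an unadjusted p under 0.05, against 8.11% of all rows in the higher direction. Elavl4, an RNA-binding protein of neurons, was at 1976 to 3252 normalized counts in controls and 2970 to 4760 in PTU exposed pups (log2 fold change 0.39, limma adjusted p = 0.171). Stmn2 and Gap43, genes of growing axons, had log2 fold changes of 0.48 and 1.04 (limma adjusted p = 0.182 and 0.194), and Ina, a neuronal intermediate filament gene, had one of 0.65 (adjusted p = 0.208). PTU pup 1 had the highest Stmn2, Gap43 and Ina but the lowest Elavl4 of its group. Without PTU pup 1 the median was 0.32, with 14 of 15 genes higher, and without PTU pups 1 and 6 it was 0.24, with 12 of 15 higher.

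All 13 tested genes of the GABAergic lineage, which arises from the ganglionic eminences and not through Eomes, were higher, with a median log2 fold change of 0.23 and 3 with an unadjusted p under 0.05 (8.11% of all rows in this direction). Dlx5 was at 773 to 2008 normalized counts in controls and 1207 to 2312 in PTU exposed pups (log2 fold change 0.58, limma adjusted p = 0.174). Dlx6, its genomic neighbor, had a log2 fold change of 0.51 (adjusted p = 0.342). Gad1, which makes GABA, and Slc32a1, which loads it into vesicles, had log2 fold changes of 0.42 and 0.40 (limma adjusted p = 0.267 and 0.296). All 13 genes were higher also without PTU pups 1 and 6, with a median of 0.31. The median was 0.39 without PTU pup 1 alone, 0.12 without PTU pup 6 alone (12 of 13 higher) and 0.14 without Control pup 5 (11 of 13 higher), and Slc32a1 was at 0.27 without PTU pup 6.

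Markers of other cells were counted in the same way. All 10 choroid plexus genes were lower (median log2 fold change -0.76), as were 4 of 5 ependymal genes (-0.32) and all 6 astrocyte genes (-0.27). All 5 oligodendrocyte progenitor genes were higher (0.24), as were 5 of 6 endothelial (0.25) and 5 of 7 microglial genes (0.06). With 1 pup left out, the ependymal median ran from -0.50 to -0.11 (without Control pups 5 and 3), the oligodendrocyte progenitor median was as low as 0.12 (without Control pup 5), and the microglial one ran from -0.02 to 0.08 (without PTU pups 2 and 6). Of 6 hippocampal and dentate genes 3 were lower, each with an unadjusted p under 0.05, and none of the 3 higher ones had such a p (median -0.15). With the same total for every pup, where the median row lay at 0.20, the medians were -0.56 for choroid plexus, -0.12 for ependymal (3 of 5 lower), -0.07 for astrocyte (4 of 6 lower), 0.44 for oligodendrocyte progenitor, 0.45 for endothelial, 0.26 for microglial and 0.05 for hippocampal and dentate genes. For Cajal-Retzius cells 2 of 6 markers had a row, and both were higher, with a summed level of 7964 normalized counts in PTU pup 1 and at most 2393 in controls. The other PTU exposed pups reached at most 2173, and without PTU pup 1 the median of the 2 was 0.27 in place of 0.55, with 1 higher and 1 lower. In the main limma fit, with all pups and the deposited scaling, none of these genes had an adjusted p of at most 0.05. Their part in the levels of the 9 factors was not tested.

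**Figure D5:**
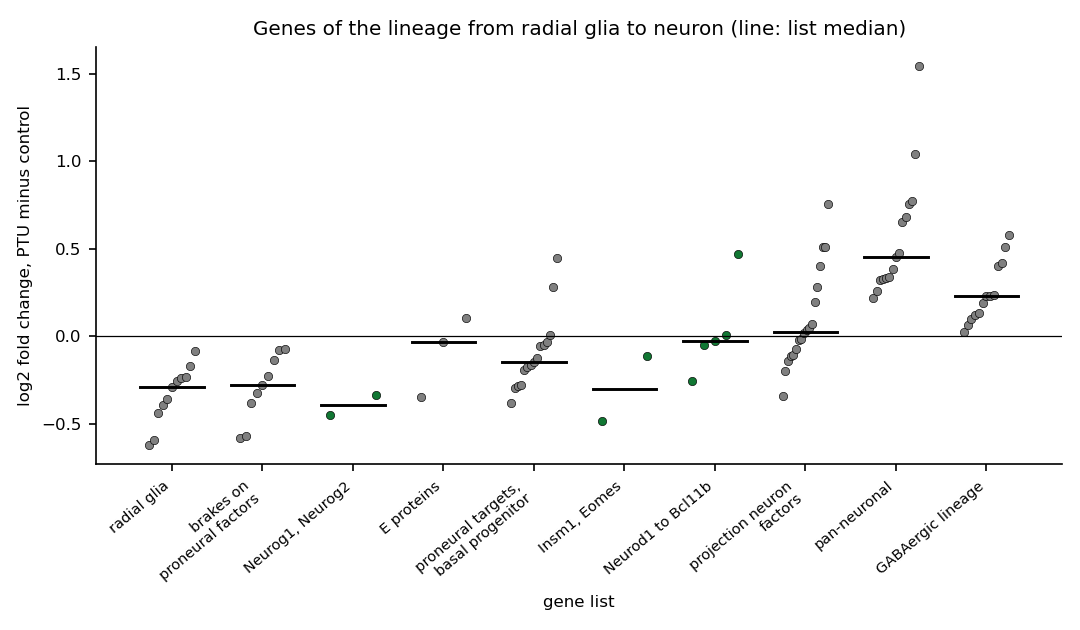
Log2 fold change (PTU minus control, limma) of each gene in lists ordered from radial glia to neurons, with the 9 transcription factors in green, other genes in grey and lines for list medians. With the deposited scaling, the lowest median is -0.39 for Neurog1 and Neurog2 and the highest is 0.45 in pan-neuronal genes. Radial glia are at -0.29 and Insm1 and Eomes at -0.30. Scaling to the same total moves the median of proneural targets from -0.15 to 0.05 and that of all rows by 0.20.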

How the data were processed

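Stranded total RNA libraries were sequenced from the laser captured posterior VZ of male pups, 7 of them control and 6 PTU exposed. Per the methods and the submitters' processing notes, the authors cleaned the reads with Trimmomatic, mapped them with STAR 2.7.8a (genome mRatBN7.2) and counted transcripts with Partek's E/M model, in which a read that fits several transcripts is shared out. Median ratio scaling by the authors followed, so the deposited unit is a non-negative signal, written here as normalized counts, rather than raw counts. RefSeq is named as the annotation in the methods, although the row identifiers are Ensembl's, and the authors' filter on low rows is not given in the sources used here. The deposited columns of the authors' own DESeq2 comparison (p-value, FDR, ratio, fold change and group means) were not used, and 0 columns of per-sample values were left out.

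Groups came from the sample labels. Of 14716 rows, the 14606 averaging 10 or more normalized counts entered limma 3.58.1 (R 4.3.3) as log2(normalized count + 1), with a variance trend, Benjamini-Hochberg adjustment and a threshold of 0.05. Changes of low transcripts are understated on this scale. Exact permutation tests ran over all 1716 regroupings, so that the smallest p they can give is 0.000583. Ratios used the same log2 values. Correlations used group-centred values and 100000 permutations, and values with pups left out were centred again. The remaining steps ran in Python 3.11.15, with scipy 1.17.1, numpy 2.4.6 and pandas 2.3.3, and plots in matplotlib 3.10.9.

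The size of 1 read in each pup was read off the spacing of low values, and lay between 0.79 and 1.36 normalized counts. In the range from 20 to 150, 88.7 to 90.3% of values were whole multiples of this spacing (within 0.05 reads), which was too few to recover whole reads. No transcript lengths were used, so levels are not compared between genes.

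The text names the 9 factors, from each list of the pathway the 4 genes with the smallest unadjusted p (3 for the E proteins), and the 6 rows most like the factors' mean. Bhlhe22 and Reln were added after values were seen. The factors and lists were chosen with earlier results of these data known. Within groups, pups correlated at r = 0.93 to 0.98 over rows, and no samples were identical. Alternatives changed the pseudocount (0.1 or 10), the filter (none, or a mean of at least 100), the scaling (TMM, quantile, or an equal total), the handling of several rows per gene (summed), the weights of pups, the variance trend and the use of replicate numbers as a block, or left out 1 pup. Voom on estimated reads, PTU pups 1 and 6 left out together, and all alternatives for the correlations were chosen after seeing the data. The limma step and TMM were tested on simulated data.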

Additional observations from a re-analysis of the deposited data

Results flagged for a closer look

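Single pups far from the rest of their group were looked for in 98 sets of 7 control or 6 PTU exposed values by Dixon's criterion, which chance alone meets in about 1 of 20 groups. It was met 10 times, 8 of them by PTU pup 1. PTU pup 1 was the highest of its group for Neurod1 (5106 normalized counts, next 1384), Neurod2 (2238, next 1235), Neurod6 (4253, next 901) and Stmn2 (13893, next 9235), and for the log2 ratio of Neurod1 over Eomes (1.84, next -0.29). It was the lowest for Pax6 (1423, next 2343), Dlx5 (1207, next 1956) and the summed GABAergic lineage genes (24790, next 42227). PTU pup 6 was the highest for Bcl11b (14355, next 7887). Control pup 7 was the lowest control for Emx2 (1605, next 2164).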

How the results depend on the processing

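Of the 9 factors, Neurog1, Neurog2, Eomes, Tbr1 and Bcl11b kept their direction under every alternative run, and none of the 9 was called except Eomes under the replicate block. Leaving out 1 pup gave 0 to 179 rows called (179 without PTU pup 2, 7 without Control pup 6), and 40 were called with array weights. It gave log2 fold changes of -0.19 to 0.057 for Insm1, -0.41 to 0.14 for Neurod1, -0.26 to 0.037 for Neurod2, -0.51 to 0.21 for Neurod6 and -0.081 to 0.031 for Tcf12. Without PTU pup 1, Insm1 was at 0.057, Neurod6 at -0.51 and Tcf12 at 0.031. For Bcl11b the range was 0.29 to 0.59, the lowest without PTU pup 6.

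Without PTU pups 1 and 6 the log2 fold changes were 0.049 for Insm1, -0.47 for Neurod6 and 0.065 for Tcf12, and the ratios differed by -0.076 for Neurod1 over Eomes, 0.29 for Neurod2 over Neurod1 and -0.27 for Neurod6 over Neurod2. When 1 pup was left out, Neurod2 over Neurod1 ranged from -0.13 to 0.15 and Neurod6 over Neurod2 from -0.26 to 0.23. The same total for every pup (median shift over all rows 0.20) left 4 factors lower, with Tbr1 at -0.057 and Neurog2 at -0.14, and gave 0.086 for Insm1, 0.17 for Neurod1, 0.15 for Neurod2, 0.17 for Tcf12 and 0.026 for Rnd2. Neurod6 was at -0.0013 with TMM factors and at -0.17 with array weights, which put Tcf12 at 0.023. With 1 pup left out, the number of correlated pairs ranged from 1 (without PTU pup 1, and without PTU pup 4) to 7, against 6 with all pups. It was 2 without PTU pups 1 and 6 together, 8 with the same total and 4 with quantile normalization. It was 3 without Control pup 1 and 2 without Control pup 5. Neurod2 and Tbr1 passed in all of these, with r of 0.80 to 0.905. The cause of these shifts was not tested.

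With the replicate number as a block, where Control pup 7 has no partner, 18 rows were called, among the named genes Eomes and Emx2, and Eomes had a log2 fold change of -0.61 (limma adjusted p = 0.0475). The numbers belong to pups of different litters. Same-numbered pups correlated at -0.07 to 0.20, over 0.1 in 4 of 6 pairs, and 3 of 6 controls correlated best with their own number. These values do not decide whether the numbers pair samples. The labels state no pairing, so the main fit used none.

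Neurog1, at 11 to 44 estimated reads, is the factor limited most by depth. With 7 and 6 pups, the standard errors of the factors' log2 fold changes ran from 0.14 to 0.47.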
